A study of Homo sapiens with 15 samples.

Results

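Cadherins and protocadherins are cell surface adhesion proteins, and 89 of their genes were measured in 5 human neuroblastoma cell lines. They were all genes with a symbol of the form CDH plus a number, or beginning PCDH, that had a probe set naming only that gene. Each gene was read from its brightest probe set by mean over the 15 arrays, and 18244 genes were measured in all in the same way. The 89 genes comprise 4 classical type I cadherins, 13 type II cadherins, 4 atypical cadherins, 13 protocadherins encoded outside the clusters, and 15 alpha, 18 beta and 22 gamma protocadherins of the gene clusters on chromosome 5. CDH4 and CDH13 were not analysed here.

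The study profiled KELLY, NGP, BE(2)-C, SH-SY5Y and SK-N-AS with 3 arrays per line, and its title concerns transcription that depends on MYCN. All 5 are established lines of neuroblastoma, a childhood tumour of the sympathetic nervous system, and no treatment is given in the labels. From general knowledge of these lines, and not from the labels, NGP, BE(2)-C and KELLY carry an amplified MYCN oncogene, whereas SK-N-AS and SH-SY5Y do not. Cells of every line were grown in DMEM with fetal bovine serum and counted, ERCC spike-in RNA was added at lysis, and total RNA was labelled by a 3' in vitro transcription protocol. Each line stands for 1 tumour, and the labels do not say that the 3 arrays came from separate cultures, so the p-values cover no more than the spread of these samples, which may be technical.

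Classical cadherins hold neighbouring cells together by binding their own kind in the presence of calcium, and inside the cell they bind catenins, which link them to actin. Epithelia are known for CDH1, whereas neural and mesenchymal cells are known for CDH2. Protocadherins outside the clusters bind more weakly and are best known in the developing nervous system. In the clusters each variable exon has its own promoter, neurons choose among these promoters, and the chosen combination gives a neuron its surface identity. CTCF and cohesin, which loop DNA, take part in that choice.

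The arrays were not scaled to a common total. Array medians ran from 51.9 and 57.2 at the extremes of SH-SY5Y to 121 and 126 in SK-N-AS, and the median SK-N-AS minus SH-SY5Y difference over the 12721 genes tested was 1.23 on the log2 scale. Directions are therefore given for the deposited intensities and again for arrays centred on their median over the tested genes, called centred arrays below. In bulk RNA, fewer cells of a type and less RNA per cell cannot be told apart. The correlation was at least 0.993 between arrays of 1 line and at most 0.892 between arrays of different lines. Of the neuroblast markers, 7 of 7 lay above the median of all values in every line. STMN2 (83.2) and DBH (96) did so only narrowly in SK-N-AS, below its own array medians, against at least 5148 and 778 elsewhere. PHOX2A, ISL1 and GATA3 were also lowest there, whereas HAND2 was highest and TH exceeded SH-SY5Y and NGP. The summed neuroblast intensity of SK-N-AS was 13684 to 15325, against at least 20748 for any other line. Fibroblast markers passed the median of all values for 5 of 6 genes in SK-N-AS. Their summed intensity there was 23308 to 24674, against at most 1559 in any other line. SK-N-AS also had 4 of 6 epithelial markers above that median, among them KRT18 at 8602, and 1 of 4 leukocyte markers, PTPRC at 320. The part of these differences in the SK-N-AS values below was not tested.

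Promoter sequence was matched for 69 of the 89 genes in RefSeq windows on GRCh38.p14, which run from 250 bases before to 50 after a gene's start. The beta cluster is shown because its genes stand side by side and share a short element while their levels differed between the lines. The string GGTGGCGCT, searched on both strands, lay in 13 of 14 PCDHB promoters, in 0 of 13 PCDHA promoters, in 0 of 25 PCDHG promoters and in 0 of 36 promoters of members outside the clusters. It was chosen as a frequent string of the beta promoters, so its count there is a description, and 176 of all 35116 promoters held it, or 0.501%. It began 2 to 84 bases before the gene's start, with a median of 66, and was followed by GCAG in 10 of the 13. The sequences of 6 beta genes described below are given 5′ to 3′ on the plus strand with this string in capitals, at most 25 bases on either side and no base past the start.
PCDHB2, chr5:141094530-141094588: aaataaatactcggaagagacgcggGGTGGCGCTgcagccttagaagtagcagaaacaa
PCDHB3, chr5:141100379-141100437: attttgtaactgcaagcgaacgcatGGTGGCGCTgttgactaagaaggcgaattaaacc
PCDHB5, chr5:141135165-141135205: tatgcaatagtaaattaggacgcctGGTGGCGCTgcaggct
PCDHB16, chr5:141182296-141182354: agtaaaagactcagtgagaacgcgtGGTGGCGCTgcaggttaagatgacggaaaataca
PCDHB10, chr5:141192285-141192343: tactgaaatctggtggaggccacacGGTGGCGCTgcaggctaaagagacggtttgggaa
PCDHB15, chr5:141245300-141245358: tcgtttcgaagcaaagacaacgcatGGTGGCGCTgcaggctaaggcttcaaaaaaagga

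The E-box CACGTG, the sequence that MYC and MYCN proteins are known to bind with MAX, was searched in the same windows. It lay in 3 of the 88 promoters of members, those of PCDHA9, PCDHA10 and PCDHA11, or 3.41%, beside 7.26% of all promoters. The string reads the same on both strands, and 0 of the 14 PCDHB promoters held it.

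Read from probe sets naming 1 gene, most of the family lay low on these arrays. The median of all deposited values was an intensity of 80.6, or 6.35 on the log2 scale, and it served as the cut-off for testing. The line mean reached it for 31 of 89 genes in BE(2)-C (34.8%, beside 61.4% of all 18244 genes), 25 in SK-N-AS (28.1%, beside 63.9%), 20 in NGP (22.5%, beside 56.6%), 19 in KELLY (21.3%, beside 54%) and 10 in SH-SY5Y (11.2%, beside 50.2%). In at least 1 line 40 members reached it, or 44.9% beside 69.7% of all genes, and in all 5 lines 5 members did, or 5.62% beside 44.6%. Those 5 were CDH2, CDH11, PCDH9, PCDH18 and PCDHB10. The other 49 stayed below it in every line, which does not show that they were absent, because probe sets differ in brightness and the files used here give no detection call. Among them were 9 alpha and 21 gamma genes. Of 6 probe sets naming all 15 alpha genes, which were used for no gene, the brightest lay above it in every line. Its means ran from 102 in KELLY to 1454 in BE(2)-C, whereas the others lay below the cut-off in KELLY.

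**Figure D1:**
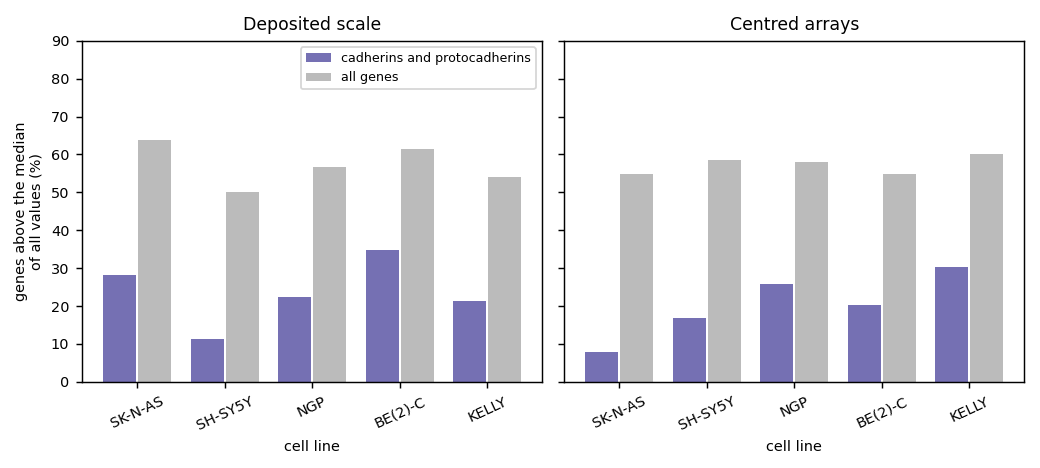
The bars give the percentage of genes with a line mean that reached the median of all deposited values, for the 89 cadherins and protocadherins and for all 18244 genes, on deposited intensities and on centred arrays. In every line the share of the family was below that of all genes, from 11.2% in SH-SY5Y to 34.8% in BE(2)-C on the deposited scale.

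The order of the lines in this count followed the scale. On centred arrays 27 members lay above the median in KELLY (beside 60% of all genes), 23 in NGP (58%), 18 in BE(2)-C (54.8%), 15 in SH-SY5Y (58.5%) and, at the bottom, 7 in SK-N-AS (54.9%), and SK-N-AS went from the second highest count to the lowest. The share of the family stayed below that of all genes in each line, at most 30.3%. Of the 40 members tested, 24 had their lowest line mean in SH-SY5Y on the deposited scale, whereas on centred arrays 23 had it in SK-N-AS. The highest line was the same on both scales for 22 of the 40 and the lowest line for 16, and an order of lines given without a scale is that of the deposited intensities.

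A difference between lines was called at an adjusted p under 0.05 and a log2 difference of at least 1, from a limma model of all 12721 genes tested, with Benjamini-Hochberg adjustment within each of the 10 pairs of lines. At least 1 pair was called for 37 of the 40 members tested, beside 91.4% of all tested genes, a share near the background. On centred arrays it was 32 of 40, beside 54.6%. Members passed the cut-off through the lines where they were high (9 of the 40 did so in 1 line only), and this was not counted over all genes. The shares of calls are therefore a description, and the part of the cut-off in them was not tested. CDH3, PCDHA13 and PCDHGB5 had no called pair on the deposited scale.

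The number of members called, of 40, is given with the share of all tested genes called in the same pair. On the deposited scale it was 20 between SH-SY5Y and SK-N-AS (68.5%), 15 between NGP and SK-N-AS (43.9%), 18 between BE(2)-C and SK-N-AS (25.6%) and 12 between KELLY and SK-N-AS (54.4%). It was 18 between NGP and SH-SY5Y (23%), 28 between BE(2)-C and SH-SY5Y (56.1%) and 17 between KELLY and SH-SY5Y (15.7%). Among the lines with MYCN amplification it was 16 between BE(2)-C and NGP (31.4%), 13 between KELLY and NGP (16.1%) and 20 between KELLY and BE(2)-C (42.5%).

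On centred arrays the counts were closer together. They were 16 (25.9%), 19 (30.1%), 19 (25.1%) and 23 (29.1%) for SK-N-AS against SH-SY5Y, NGP, BE(2)-C and KELLY. For SH-SY5Y they were 15 against NGP (16.2%), 18 against BE(2)-C (16.5%) and 17 against KELLY (14.9%). The remaining pairs gave 15 for NGP and BE(2)-C (19.3%), 14 for NGP and KELLY (14.1%) and 15 for BE(2)-C and KELLY (17.4%). In the 4 contrasts of SK-N-AS with another line, which share its 3 arrays, members were called lower in SK-N-AS on centred arrays 14 times against SH-SY5Y (background 14.3%), 15 times against NGP (15.8%), 16 times against BE(2)-C (12.5%) and 20 times against KELLY (15.6%). They were called higher there 2, 4, 3 and 3 times (background 11.5%, 14.3%, 12.5% and 13.5%). Centring shifts every gene of an array alike. The median SK-N-AS minus SH-SY5Y difference was 0.61 over the 89 members, tested or not, and 0.93 over all genes, tested or not. It was 1.23 over the tested genes, on which the arrays were centred. A dim member could therefore be called lower without a lower intensity, as PCDH19, which went from 0.27 to -1.06 in this pair. The part of this in the balance of calls was not tested. On the deposited scale SK-N-AS against SH-SY5Y gave the opposite balance, with 18 members called higher (64.2%) and 2 lower (4.28%).

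**Figure D2:**
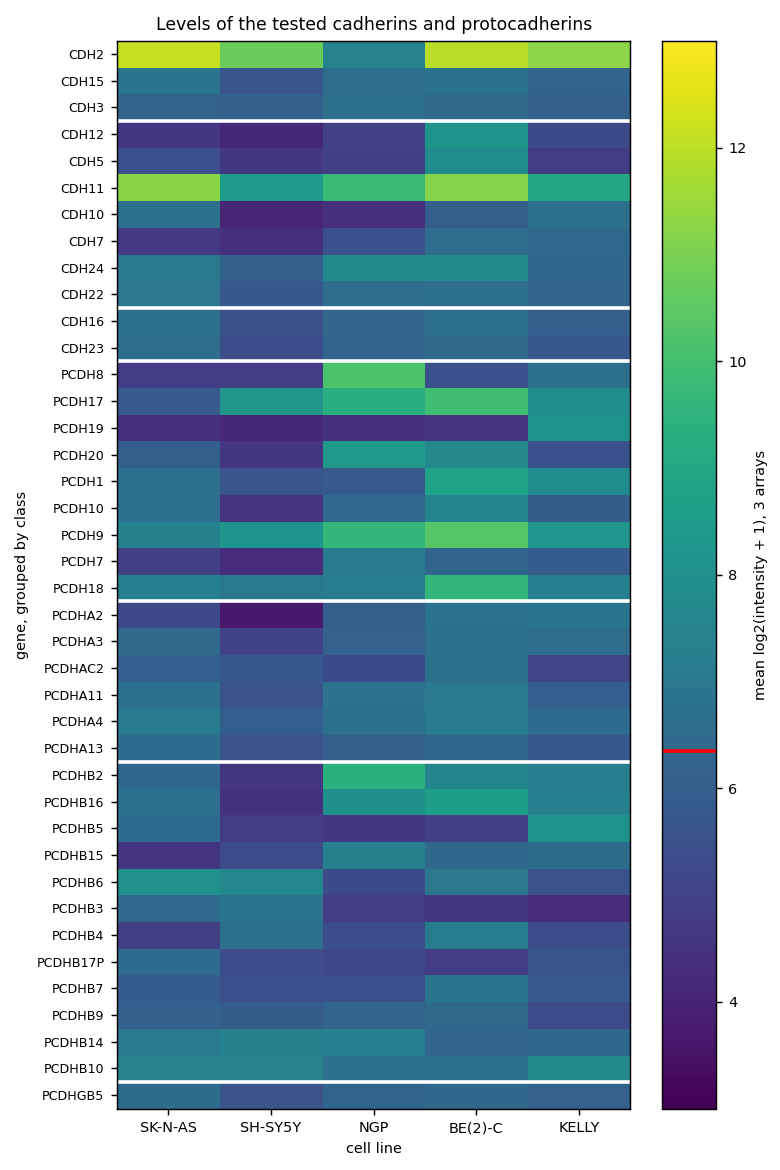
Each row is 1 of the 40 tested cadherins and protocadherins, grouped by class, and each column 1 line, and the colour gives the mean log2(intensity + 1) of 3 arrays on the deposited scale. CDH2 and CDH11 were bright in most lines, whereas PCDH8, PCDH19, CDH5 and CDH12 were bright in 1 line and dim in most others.

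A line counted as marked by a member that was called in 1 direction against each of the 4 other lines. This held for 13 of 40 members, beside 25.5% of all tested genes, and for 17 of 40 on centred arrays, beside 19%. For 9 members the same line was marked on both scales: CDH2, PCDH8 and PCDHB2 for NGP, CDH5, CDH12 and PCDH18 for BE(2)-C, PCDH19 and PCDHB5 for KELLY, and PCDH17 for SK-N-AS. By line and direction, 3 members marked BE(2)-C as higher (background 3.46%), 2 marked NGP as higher (1.67%) and 1 as lower (1.15%), 2 marked KELLY as higher (0.472%), 1 marked SK-N-AS as lower (2.12%) and 5 marked SH-SY5Y as lower (3.95%). None of the 5 for SH-SY5Y did so on centred arrays (background 0.778%). CDH5 and CDH12 reached the cut-off in BE(2)-C only and PCDH19 in KELLY only, so they were tested only through the line that they mark. The marks are therefore a description, and the part of the cut-off in their share beside the background was not tested. The marks of the 9 members were called in each of 24 alternative settings in which the gene was tested.

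Among the type I cadherins, CDH2, or N-cadherin, marked NGP as low. Its intensity was 184, 188 and 166 in NGP, 1765, 1407 and 1949 in SH-SY5Y, 2345, 2401 and 2612 in KELLY, 4107, 3893 and 3867 in BE(2)-C and 4787, 4105 and 4799 on the SK-N-AS arrays. All NGP arrays lay far below every other array, and SK-N-AS and BE(2)-C overlapped at the top. The mean was 179 ± 11.5 in NGP and 4564 ± 397 in SK-N-AS (SD, n = 3 each), a 25.5-fold range. On the log2 scale NGP lay 3.23 to 4.66 below the other lines (highest limma adjusted p = 8.78e-20) and on centred arrays 3.75 to 4.07 below. A second probe set of CDH2 had the same highest and lowest line.

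CDH1, or E-cadherin, stayed below the cut-off in every line and was not tested. It stood at 30.7, 27.6 and 28.7 in BE(2)-C, 26.9, 20.7 and 26.1 in SH-SY5Y, 27.6, 28.4 and 27.0 in KELLY, 32.6, 31.6 and 39.3 on the SK-N-AS arrays and 32.9, 34.6 and 32.5 in NGP. Low CDH1 held in SK-N-AS as well, the line with high KRT8 and KRT18, where the epithelial marker EPCAM was 16.8. CDH3, or P-cadherin, stood at 79.4, 92.3 and 86.5 in BE(2)-C, 66.4, 72.8 and 63.6 in SH-SY5Y, 68.4, 68.2 and 64.8 in KELLY, 73.6, 86.3 and 56.1 on the SK-N-AS arrays and 105, 101 and 99.3 in NGP. On the deposited scale NGP was highest and did not overlap with the other lines, but the range of line means was 0.59 on the log2 scale and no pair was called. On centred arrays SK-N-AS was lowest and 3 pairs were called, with SK-N-AS minus SH-SY5Y at -1.26, minus NGP at -1.33 and minus KELLY at -1.04. CDH15, the cadherin of muscle, ranged from 49.9 ± 6.09 in SH-SY5Y to 120.5 ± 15.8 in SK-N-AS with 2 pairs called, and on centred arrays its range was 0.46 with none.

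**Figure D3:**
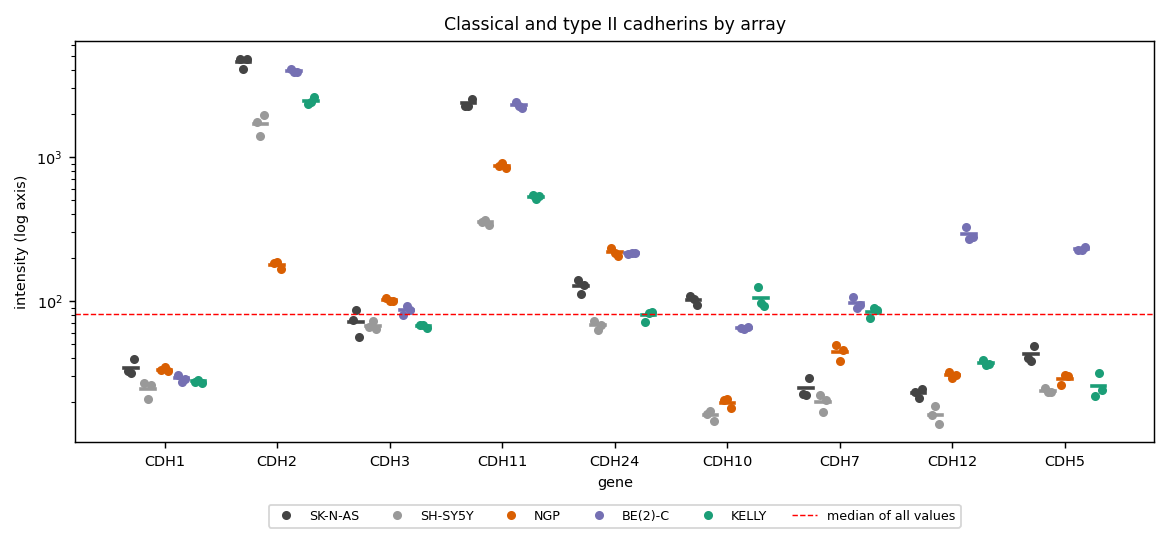
Points are single arrays and bars are line means of the intensity on a log axis for CDH1 and 8 tested classical and type II cadherins, with a dashed line at the median of all values (80.6). CDH2 was low in NGP, at 166 to 188, and CDH5 and CDH12 were high in BE(2)-C only.

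The type II cadherins sort neurons and other cells in the embryo. Of the 13, 7 were tested and 7 had a called pair, beside 91.4% of all tested genes (6 on centred arrays, beside 54.6%). CDH11, the cadherin of mesenchyme and bone, was above the median in all lines, at 2407, 2251 and 2191 in BE(2)-C, 357, 366 and 339.7 in SH-SY5Y, 548, 508 and 533 in KELLY, 2279.6, 2278 and 2547 on the SK-N-AS arrays and 864, 912 and 844 in NGP. SK-N-AS and BE(2)-C overlapped, and the other lines stood apart from them and from each other. SK-N-AS minus SH-SY5Y was 2.74 ± 0.07 (log2 difference ± SE, limma adjusted p = 3.95e-21) on the deposited scale and 1.40 ± 0.06 on centred arrays.

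CDH12, a cadherin of the brain, marked BE(2)-C. It stood at 326, 268 and 279 in BE(2)-C, against 23.2, 21.3 and 24.4 on the SK-N-AS arrays, 16.2, 18.6 and 14 in SH-SY5Y, 32.2, 29.1 and 30.7 in NGP and 38.7, 36.0 and 36.8 in KELLY. No array of another line came near those of BE(2)-C. The difference was 2.93 to 4.08 on the log2 scale (highest limma adjusted p = 1.4e-16), and 2.02 to 3.80 on centred arrays.

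CDH5, the cadherin of endothelial junctions, marked the same line. It stood at 227, 226 and 239 in BE(2)-C, 40.5, 38.1 and 49.0 on the SK-N-AS arrays, 24.7, 23.2 and 23.3 in SH-SY5Y, 26.1, 30.7 and 30.0 in NGP and 21.8, 31.6 and 24.3 in KELLY. BE(2)-C stood 2.42 to 3.23 above the other lines on the log2 scale (highest limma adjusted p = 2.75e-14). The second CDH5 probe set did not share this pattern and lay below the median in all lines, at 5.18 in BE(2)-C and 5.40 in SK-N-AS on the log2 scale. Of 6 endothelial markers 3 lay above the median in BE(2)-C, among them PECAM1 at 105, and 3 in SK-N-AS, with PECAM1 at 92.5. Their summed intensity on the deposited scale was 382 to 421 in BE(2)-C and 438 to 486 in SK-N-AS, and a relation of CDH5 to these markers was not tested.

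CDH10, which neighbours CDH12 on chromosome 5, had another pattern. It was read from its only probe set, which is of the kind that can match related transcripts. It stood at 108, 103 and 94.3 on the SK-N-AS arrays, 125, 96.3 and 92.4 in KELLY, 65.5, 63.5 and 65.7 in BE(2)-C, 20.4, 20.8 and 18.0 in NGP and 16.5, 17.1 and 14.6 in SH-SY5Y. SK-N-AS and KELLY overlapped at the top. On centred arrays KELLY lay 1.14 to 2.64 above all other lines and was marked (highest limma adjusted p = 4.05e-07; background 1.06%). CDH18 and CDH6, of the same chromosome, stayed below the cut-off. CDH18 stood at 48.7, 47.9 and 48.0 in BE(2)-C, 18.7, 24.6 and 21.7 in SH-SY5Y, 29.2, 25.1 and 29.3 in KELLY, 28.5, 26.3 and 34.8 on the SK-N-AS arrays and 55.1, 50.5 and 54.1 in NGP. CDH6 stood at 36.3, 32.7 and 48.4 in BE(2)-C, 25.1, 29.6 and 24.7 in SH-SY5Y, 31.2, 26.3 and 29.2 in KELLY, 33.7, 37.5 and 32.0 on the SK-N-AS arrays and 44.9, 41.3 and 37.8 in NGP. CDH18 was highest in NGP and BE(2)-C, whereas for CDH6 BE(2)-C overlapped with NGP and SK-N-AS.

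CDH7, a cadherin of the neural crest and brain, was brighter in BE(2)-C and KELLY than in the other lines. It stood at 107, 89.5 and 93.8 in BE(2)-C, 76.0, 89.0 and 86.1 in KELLY, 49.7, 38.6 and 45.4 in NGP, 22.7, 22.3 and 29.4 on the SK-N-AS arrays and 22.1, 16.9 and 20.4 in SH-SY5Y. BE(2)-C and KELLY nearly met, and NGP lay between them and the 2 lines without MYCN amplification. On centred arrays SK-N-AS was marked as lower by 1.03 to 2.84 (background 5.56%), and a second, dimmer probe set had another order of lines. CDH24 stood at 218 ± 15.9 in NGP and at 67.9 ± 4.74 in SH-SY5Y, its lowest line, with 4 pairs called and 3 on centred arrays. NGP minus BE(2)-C was 0.02 on the deposited scale (limma adjusted p = 0.868) and 0.63 on centred arrays, and a second probe set was highest in BE(2)-C, at 7.42 against 6.96 in NGP on the log2 scale. CDH22 had 2 called pairs and none on centred arrays. Of the atypical cadherins, CDH16 and CDH23 were tested, each with 2 called pairs on the deposited scale and none on centred arrays, and CDH17 and CDH26 stayed at 32.2 or less in every line.

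Of the 13 protocadherins outside the clusters, 9 were tested, and 9 had a called pair on both scales, beside 91.4% (deposited) and 54.6% (centred) of all tested genes. These protocadherins included the widest range of the family. PCDH8, a protocadherin of brain and paraxial mesoderm, stood at 1110.0, 1247 and 1127 in NGP, 107, 104 and 94.4 in KELLY, 42.7, 39.0 and 44.5 in BE(2)-C, 34.4, 20.2 and 24.2 on the SK-N-AS arrays and 23.4, 27.0 and 27.5 in SH-SY5Y. NGP stood alone at the top, KELLY lay between, and SK-N-AS and SH-SY5Y overlapped. The mean was 1161 ± 74.6 in NGP, and SK-N-AS, SH-SY5Y and BE(2)-C lay below the cut-off, so no fold against them is given. NGP exceeded the other lines by 3.50 to 5.45 (highest limma adjusted p = 2.99e-17) and by 3.20 to 6.26 on centred arrays.

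PCDH17 was lowest in SK-N-AS. It stood at 55.2, 58.9 and 57.6 on the SK-N-AS arrays, 220.1, 243 and 262 in KELLY, 329, 314 and 299 in SH-SY5Y, 666, 512 and 682 in NGP and 1037, 918 and 964 in BE(2)-C. No arrays of different lines overlapped. SK-N-AS lay 2.06 to 4.06 below the others on the log2 scale (highest limma adjusted p = 3.91e-16) and 3.17 to 4.26 below on centred arrays, and all 3 other probe sets of the gene had the same highest and lowest line. PCDH9 had the same order at its ends, with 176, 159 and 168 on the SK-N-AS arrays, 291, 269 and 302 in SH-SY5Y, 298, 301 and 309 in KELLY, 862, 786 and 738 in NGP and 1313, 1354 and 1306 in BE(2)-C. SH-SY5Y and KELLY overlapped. SK-N-AS lay 0.77 to 2.98 below the others and was marked on centred arrays only, by 1.96 to 3.18 (highest limma adjusted p = 4.12e-15). One of 2 other PCDH9 probe sets was dim and highest in SH-SY5Y.

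PCDH20, which lies on chromosome 13 with PCDH8, PCDH9 and PCDH17, was highest in NGP. It stood at 327, 342 and 347 in NGP, 212, 196 and 209 in BE(2)-C, 57.2, 66.5 and 67.5 on the SK-N-AS arrays, 42.9, 50.4 and 42.6 in KELLY and 21.0, 25.7 and 22.2 in SH-SY5Y. Each line stood apart from the next. NGP exceeded BE(2)-C by 0.72 on the deposited scale and by 1.33 on centred arrays, where NGP was marked (background 1.86%). These 4 genes of 1 chromosome thus had their highest deposited mean in NGP (PCDH8 and PCDH20) or BE(2)-C (PCDH9 and PCDH17). Of the 40 tested members, 7 were highest in NGP and 15 in BE(2)-C, so this is not particular to the 4.

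PCDH19, an X-linked gene known from an epilepsy, was bright in KELLY alone. It stood at 266, 291 and 280.5 in KELLY, 23.8, 16.7 and 20.2 on the SK-N-AS arrays, 20.1, 14.3 and 15.2 in SH-SY5Y, 21.8, 16.4 and 20.7 in NGP and 21.9, 20.9 and 22.2 in BE(2)-C. The other 4 lines lay together between 14.3 and 23.8. KELLY exceeded them by 3.63 to 4.01 on the log2 scale (highest limma adjusted p = 8.37e-17) and by 3.79 to 4.85 on centred arrays.

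PCDH18 was above the median everywhere and marked BE(2)-C. It stood at 857, 765 and 764 in BE(2)-C, 158, 156 and 156 on the SK-N-AS arrays, 130.4, 143 and 108 in SH-SY5Y, 162, 141 and 144 in NGP and 149, 163 and 162 in KELLY. The other 4 lines lay together between 108 and 163. BE(2)-C exceeded them by 2.32 to 2.64 (highest limma adjusted p = 5.53e-17) and by 1.41 to 2.53 on centred arrays. PCDH1, known from airway epithelium, stood at 433, 449 and 443 in BE(2)-C, 241, 213 and 238 in KELLY, 101, 103 and 98.2 on the SK-N-AS arrays, 54.6, 58.2 and 51.9 in NGP and 51.4, 43.9 and 50.7 in SH-SY5Y. NGP and SH-SY5Y were lowest and lay close to each other. BE(2)-C minus KELLY was 0.94 ± 0.09 on the deposited scale and 0.02 ± 0.07 on centred arrays (limma adjusted p = 0.794), and it was called on neither scale.

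PCDH10, which is known to be silenced by promoter methylation in several tumours, marked SH-SY5Y as low on the deposited scale. It stood at 17.5, 22.2 and 25.3 in SH-SY5Y, 64.7, 62.6 and 55.5 in KELLY, 90.3, 89.3 and 77.3 in NGP, 91.3, 103 and 101 on the SK-N-AS arrays and 193, 187 and 172 in BE(2)-C. SH-SY5Y lay below every other array and BE(2)-C above. The SH-SY5Y difference was 1.46 to 3.04 on the deposited scale in size and 0.81 to 1.91 on centred arrays, where SH-SY5Y was not marked.

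**Figure D4:**
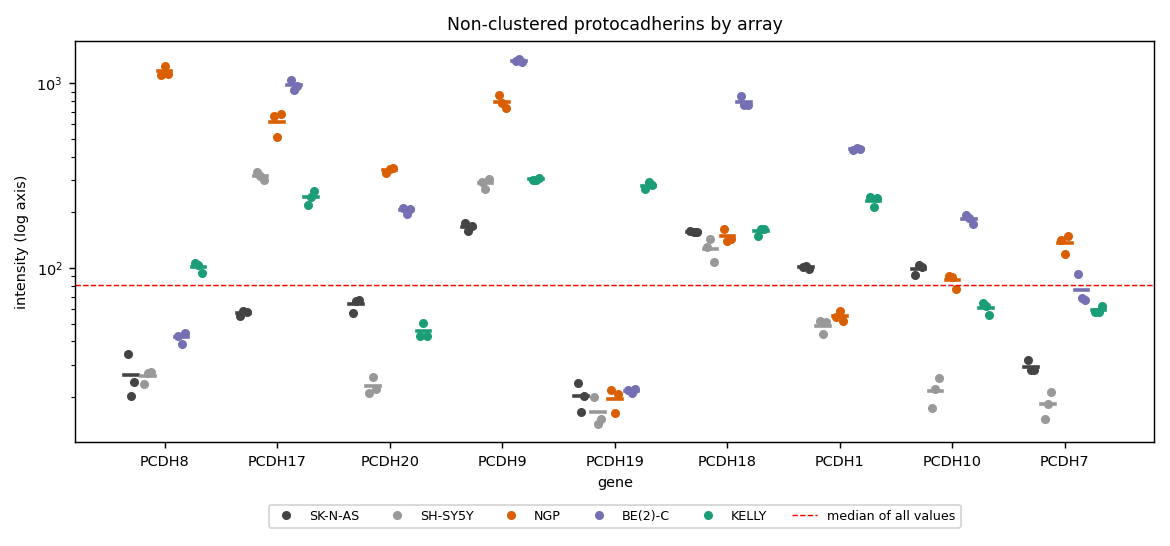
Points are single arrays and bars are line means of the intensity on a log axis for the 9 tested protocadherins encoded outside the clusters, with a dashed line at the median of all values (80.6). PCDH8 was high in NGP, PCDH19 in KELLY and PCDH18 in BE(2)-C, and PCDH17 was lowest in SK-N-AS.

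In the alpha cluster 6 of 15 genes were tested, and 5 had a called pair, beside 91.4% of all tested genes (3 on centred arrays, beside 54.6%). In the 6 probe sets naming all 15 alpha genes, described at the end, KELLY and not SH-SY5Y was dimmest on the deposited scale. PCDHA2 stood at 11.1, 13.4 and 11.1 in SH-SY5Y, 39.5, 31.3 and 35.9 on the SK-N-AS arrays, 62.0, 69.6 and 63.6 in NGP, 92.5, 121 and 122 in BE(2)-C and 149, 91.0 and 112 in KELLY. BE(2)-C and KELLY overlapped at the top. SH-SY5Y lay 1.50 to 3.17 below the others on the log2 scale (highest limma adjusted p = 1.22e-09), but on centred arrays it was 0.17 below SK-N-AS (adjusted p = 0.378). A second, dimmer PCDHA2 probe set was highest in BE(2)-C. PCDHA3 stood at 31.5, 32.3 and 32.8 in SH-SY5Y, 75.2, 70.1 and 62.2 in NGP, 95.3, 76.0 and 88.1 on the SK-N-AS arrays, 93.1, 88.8 and 105 in KELLY and 94.9, 99.9 and 108 in BE(2)-C. SH-SY5Y stood apart, and SK-N-AS, KELLY and BE(2)-C overlapped. It marked SH-SY5Y as low on the deposited scale by 1.08 to 1.62, and on centred arrays the smallest difference was 0.06 (adjusted p = 0.617).

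The beta cluster had the largest number of tested genes, 12 of 18. A called pair was found for 12 on both scales, beside 91.4% (deposited) and 54.6% (centred) of all tested genes. The combination of genes above the median was different in each of the 5 lines, and the 12 genes showed 10 different patterns of lines. There were 8 beta genes above the median in BE(2)-C, 8 in SK-N-AS, 6 in KELLY, 5 in NGP and 5 in SH-SY5Y. PCDHB10 was above it in all 5 lines, PCDHB7 and PCDHB9 in BE(2)-C only and PCDHB17P in SK-N-AS only. Beta genes resemble each other in sequence, and PCDHB6 was read by a probe set of the kind that can match related transcripts, so part of a signal may belong to a neighbour.

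PCDHB2 marked NGP as high. It stood at 632, 722 and 678 in NGP, 192, 176 and 192 in BE(2)-C, 148, 168 and 153 in KELLY, 89.8, 79.4 and 79.9 on the SK-N-AS arrays and 24.6, 20.7 and 24.6 in SH-SY5Y. Each line stood apart from the next, and SH-SY5Y lay below the cut-off. NGP exceeded the others by 1.86 to 4.81 on the log2 scale (highest limma adjusted p = 5.89e-15) and by 1.81 to 4.29 on centred arrays. SH-SY5Y was also marked as low on the deposited scale, by at least 1.79, which was 0.46 on centred arrays.

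PCDHB3, the next gene along the chromosome, ran the other way. It stood at 109, 117 and 116 in SH-SY5Y, 83.6, 88.5 and 83.2 on the SK-N-AS arrays, 29.4, 27.8 and 24.5 in NGP, 25.6, 16.7 and 29.9 in BE(2)-C and 16.9, 20.0 and 18.8 in KELLY. The 2 lines without MYCN amplification lay above all arrays of the other 3, which overlapped in part. Both other probe sets of PCDHB3 had the same highest and lowest line. On centred arrays it marked SH-SY5Y as high by 1.75 to 3.36 (background 0.943%).

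PCDHB5 was bright in KELLY. It stood at 280.4, 287 and 273 in KELLY, 83.9, 94.0 and 86.9 on the SK-N-AS arrays, 27.1, 24.7 and 26.4 in SH-SY5Y, 26.5, 28.2 and 30.7 in BE(2)-C and 24.0, 23.4 and 23.2 in NGP. KELLY stood above SK-N-AS, and SK-N-AS above the rest. KELLY exceeded the other lines by 1.66 to 3.52 (highest limma adjusted p = 2.33e-13) and by 2.77 to 4.17 on centred arrays.

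PCDHB16 stood at 452, 349 and 335 in BE(2)-C, 297, 243 and 237 in NGP, 137, 157 and 186 in KELLY, 93.0, 101 and 101 on the SK-N-AS arrays and 21.3, 20.7 and 21.2 in SH-SY5Y. No arrays of different lines overlapped. SH-SY5Y was lower than every other line by 2.17 to 4.09 (highest limma adjusted p = 6.31e-15) and by 0.84 to 3.03 on centred arrays, where the smallest difference missed the threshold of 1 and NGP was the highest line.

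PCDHB15 stood at 169, 176 and 147 in NGP, 79.0, 93.2 and 108 in KELLY, 92.9, 70.9 and 87.0 in BE(2)-C, 41.7, 38.6 and 36.5 in SH-SY5Y and 20.1, 26.1 and 20.9 on the SK-N-AS arrays. BE(2)-C and KELLY overlapped. PCDHB4 stood at 140.2, 152 and 152 in BE(2)-C, 98.0, 117 and 97.5 in SH-SY5Y, 36.5, 44.9 and 42.8 in NGP, 38.6, 45.4 and 37.7 in KELLY and 28.1, 27.2 and 31.2 on the SK-N-AS arrays. The lines high for this gene, BE(2)-C and SH-SY5Y, came from both MYCN classes, and NGP and KELLY overlapped. SH-SY5Y minus BE(2)-C was -0.51 on the deposited scale and 0.62 on centred arrays. On centred arrays both genes marked SK-N-AS as low.

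PCDHB6 stood at 254, 241 and 302 on the SK-N-AS arrays, 204, 173 and 227 in SH-SY5Y, 128, 130.4 and 112 in BE(2)-C, 50.6, 52.2 and 36.0 in KELLY and 38.0, 35.7 and 36.1 in NGP. NGP and KELLY overlapped at the bottom, and on centred arrays SH-SY5Y was highest. PCDHB10 had on the deposited scale the smallest range of the members above the median in all lines, at 107, 95.3 and 108 in BE(2)-C, 169, 152 and 191 in SH-SY5Y, 224, 218 and 211 in KELLY, 157, 174 and 186 on the SK-N-AS arrays and 96.6, 108 and 102 in NGP. SK-N-AS overlapped with SH-SY5Y, and NGP with BE(2)-C. KELLY exceeded NGP by 1.09 on the deposited scale, whereas on centred arrays the range of PCDHB10 was 1.98 and that of CDH11 was 1.55.

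PCDHB17P, a pseudogene of the cluster, stood at 85.2, 88.8 and 95.2 on the SK-N-AS arrays, 46.9, 45.2 and 50.9 in KELLY, 38.7, 44.5 and 37.9 in SH-SY5Y, 36.0, 37.9 and 31.4 in NGP and 27.2, 27.4 and 23.3 in BE(2)-C. On the deposited scale SK-N-AS lay above all other arrays, BE(2)-C lay below them, and SH-SY5Y overlapped with NGP. On centred arrays it marked BE(2)-C as lower by 1.04 to 1.77 (background 1.41%). PCDHB14 ranged from 75.5 ± 4.33 in BE(2)-C to 164 ± 3.01 in SH-SY5Y.

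**Figure D5:**
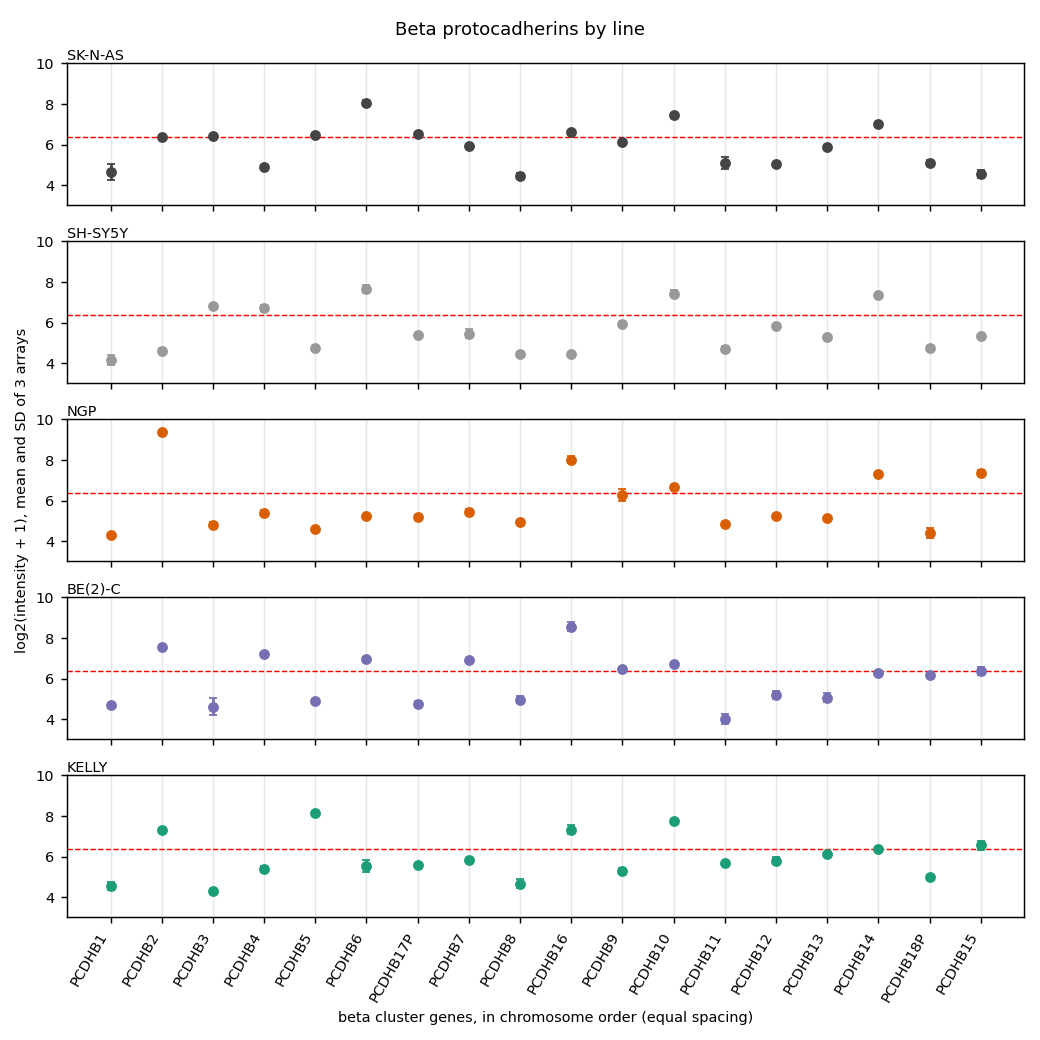
Points are means of log2(intensity + 1) over 3 arrays with error bars of 1 SD, 1 panel per line, for the 18 beta protocadherins in their order along chromosome 5, and the dashed line is the median of all values (6.35). PCDHB2 was highest in NGP, PCDHB3 in SH-SY5Y and PCDHB5 in KELLY on both scales. The neighbours PCDHB7, PCDHB8, PCDHB16 and PCDHB9 all had their highest mean in BE(2)-C on the deposited scale. PCDHB8 stayed below the cut-off and was nearly level in BE(2)-C (4.965) and NGP (4.962), and for PCDHB9 NGP minus BE(2)-C was -0.17 and not called. By the highest mean alone, 5 of 17 adjacent pairs shared their brightest line (2 on centred arrays).

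In the gamma cluster 1 of 22 genes was tested. PCDHGB5 ranged from 45.7 ± 3.55 in SH-SY5Y to 92.1 ± 11.7 in SK-N-AS with no called pair, and the other 21 had line means from 15.7 to 80.5.

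The lines with amplified MYCN were set against the others. Separation was called where a member passed in 1 direction in each of the 6 contrasts between the classes. PCDH7 and PCDHB15 did so as higher in the amplified lines (background 0.684%), and PCDHB3 as lower (0.346%). PCDH7, a protocadherin of brain and heart, stood at 141, 118 and 149 in NGP, 92.5, 68.4 and 66.8 in BE(2)-C, 58.1, 57.7 and 62.6 in KELLY, 31.7, 27.9 and 27.9 on the SK-N-AS arrays and 15.2, 18.4 and 21.3 in SH-SY5Y. The arrays of the classes did not overlap for any of the 3 genes. They were picked by contrasts of these same arrays, so this adds no support to the calls.

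The 6 differences ran from 1.01 to 2.84 for PCDH7 (highest limma adjusted p = 3.69e-07), from 1.08 to 2.82 for PCDHB15 (4.61e-08) and from 1.61 to 2.55 in size for PCDHB3 (5.49e-10). Without SK-N-AS replicate 2, SK-N-AS replicate 3 or KELLY replicate 3 PCDH7 was no longer called, and without BE(2)-C replicate 1 PCDHB15 was not, which left 2 separating members each time. Both genes were also lost with equal ERCC medians and with a pseudocount of 16, and PCDHB15 with quantile normalization. With the mean of probe sets PCDH7 was not tested. On centred arrays none of the 3 separated the classes, where the smallest differences were 0.86 for PCDH7, -0.06 for PCDHB15 and, in the lower direction, 0.80 in size for PCDHB3. In their place PCDHA2, PCDHB2 and PCDHB16 did so as higher in the amplified lines (background 0.558%), by at least 1.67, 1.36 and 1.80. The class is replicated by lines, 3 against 2, for which an exact two-sided permutation test cannot go below p = 0.1.

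The genes that act with these proteins were taken from 6 lists. Of the catenins and cytoplasmic partners, 11 of 12 genes were tested and 10 had a called pair on either scale, beside 91.4% and 54.6% of all tested genes. CTNNA2, the neural alpha-catenin, stood at 44.7, 37.8 and 41.8 on the SK-N-AS arrays but at 425 or more on every other array, up to 1096 in BE(2)-C, and marked SK-N-AS as low on both scales. VCL, or vinculin, which ties catenins to actin, stood at 7522, 6990.3 and 7600.0 on the SK-N-AS arrays, against 452 to 1872 on the other arrays, and 3 of the 11 marked SK-N-AS as high (background 12.6%), as did 1 on centred arrays (5.61%). CTNNB1, or beta-catenin, ranged from 3638 ± 242 in SH-SY5Y to 4227 ± 383 in BE(2)-C with no called pair on the deposited scale and 2 on centred arrays.

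Of the other members of the superfamily, 12 of 24 were tested and 10 had a called pair (beside 91.4% of all tested genes), 11 on centred arrays (beside 54.6%). The desmosomal cadherin DSG2 stood at 911, 979 and 1019 on the SK-N-AS arrays, 965, 1012 and 1117 in KELLY, 303, 310.1 and 321 in NGP, 27.6, 29.6 and 29.6 in BE(2)-C and 20.8, 17.9 and 19.1 in SH-SY5Y. SK-N-AS and KELLY overlapped at the top. Its partner DSC2 was high in NGP (273 ± 10.00) and KELLY (274 ± 10.8) and low in SK-N-AS (30.2 ± 3.0), SH-SY5Y (14.4 ± 1.03) and BE(2)-C (23.6 ± 8.91). DSG2 without DSC2 was thus high in SK-N-AS.

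Of 7 repressors of CDH1 known from epithelial to mesenchymal transition, 6 were tested. All 6 had a called pair on both scales, beside 91.4% (deposited) and 54.6% (centred) of all tested genes. TWIST2 stood at 496, 504 and 498 on the SK-N-AS arrays and at 15.9 to 28.8 on all other arrays. SNAI2 stood at 1068, 1138 and 1209.9 on the SK-N-AS arrays, 338, 368 and 354 in NGP, 347, 347 and 325 in BE(2)-C, 213, 209.8 and 211 in SH-SY5Y and 96.4, 103 and 100.1 in KELLY. Both genes marked SK-N-AS as high on the deposited scale (2 of 6, background 12.6%), and TWIST2 also did on centred arrays (background 5.61%), while 1 gene of the list marked SK-N-AS as low on the deposited scale and 2 on centred arrays.

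Of the proteases that mature or cleave cadherins, 10 of 13 were tested and 10 had a called pair (beside 91.4% of all tested genes), 7 on centred arrays (beside 54.6%). FURIN, which removes the propeptide, ran from 40.8 ± 4.64 in SH-SY5Y to 261 ± 34.4 in SK-N-AS, and the sheddase ADAM15 from 172 ± 9.07 in NGP to 909 ± 54.3 in SK-N-AS. Of 13 regulators of promoter choice in the clusters, 13 were tested, 12 had a called pair (beside 91.4%) and 5 on centred arrays (beside 54.6%). DNMT3A, a DNA methyltransferase, stood at 1108, 1028 and 1026 in BE(2)-C, 714, 723 and 409 in SH-SY5Y, 712, 936 and 913 in KELLY, 262, 259 and 277 on the SK-N-AS arrays and 1359, 874 and 1270.0 in NGP. SK-N-AS lay below all other arrays and was marked as low on both scales. The cohesin subunit SMC1A ran from 865 ± 13.8 in KELLY to 2959 ± 82.2 in BE(2)-C, with 2 called pairs and 1 on centred arrays. Of the WAVE actin regulators and kinases bound by protocadherins, 9 of 11 were tested and 9 had a called pair (beside 91.4%), 3 on centred arrays (beside 54.6%). WASF3 was lowest in KELLY (116 ± 6.45) and highest in NGP (1029 ± 20.3), and CYFIP2 was lowest in SK-N-AS (135 ± 17.9) and highest in NGP (740.1 ± 34.7).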

How the data were processed

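The authors' deposited values are intensity values on a linear scale, 1 per probe set and array. Per the submitters' processing notes MAS5 was used; neither its version nor any scaling to the spike-ins is stated there. Of 49494 probe sets, 45277 named 1 gene, 1333 several, and the latter were assigned to no gene. The probe set with the highest mean stood for a gene. Genes whose highest line mean reached the median of all values were tested as log2(intensity + 1) with limma 3.58.1 (R 4.3.3), 1 mean per line and an intensity trend, after the calls were tested on simulated data. Alternatives were centred arrays, quantile normalization, equal ERCC medians, a pseudocount of 16, no filter on dim genes, the mean of all probe sets, no _s_at or _x_at probe sets, no intensity trend, a replicate block and leaving out each array. With arrays, their number limits the precision. Probe sets of the _s_at and _x_at kind, which can match related transcripts, represented 22 of the 89 members, and 52 had more than 1 probe set.

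The members, the gene lists and the tests were chosen with earlier results of these data known. The genes named with every array were a preset list of 14 (12 of them on the array), the 12 tested members with the largest range between lines, every member marking a line or separating the MYCN classes, the 3 with the smallest range among those above the median in all lines, and the 2 of widest range in each list of partner genes. CDH7, PCDHB4, PCDHB6 and PCDHB17P were named with every array after their values were seen. The level of PCDH11Y is not reported here.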

Additional observations from a re-analysis of the deposited data

How the results depend on the processing

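Of the counts of members, 159 values under alternatives that kept all arrays stayed within 1.5 times the reported count and 19 did not; the cause was not tested. With quantile normalization 13 members were called between SK-N-AS and SH-SY5Y, 18 between SH-SY5Y and BE(2)-C and 13 between BE(2)-C and KELLY, 3 marked SK-N-AS, 5 marked NGP, 6 separated the classes, and 10 were above the median in SK-N-AS. On centred arrays 23 were called between SK-N-AS and KELLY and 18 between SH-SY5Y and BE(2)-C, 5 marked SK-N-AS, 1 marked SH-SY5Y, and 7 and 18 were above the median in SK-N-AS and BE(2)-C. A pseudocount of 16 gave 13 called between SK-N-AS and SH-SY5Y, 3 marking SH-SY5Y and 1 separating the classes, which was also 1 with equal ERCC medians. The mean of probe sets gave 3 marking SH-SY5Y and 16 above the median in SK-N-AS.

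SK-N-AS minus SH-SY5Y turned from positive to negative for 23 of 40 members on centred arrays and for 13 with quantile normalization. These include 7 members with SK-N-AS highest and SH-SY5Y lowest on the deposited scale, which turned on centred arrays to -0.081 for CDH15, -0.12 for CDH16, -0.045 for CDH22, -0.13 for CDH23, -0.42 for PCDHA13, -0.23 for PCDHA4 and -0.34 for PCDHGB5. With quantile normalization PCDHA13 (-0.12), PCDHA4 (-0.089) and PCDHGB5 (-0.045) of these 7 did.

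Leaving out each array in turn gave the following ranges. Counts per pair were 19 to 22, 15 to 15, 17 to 18 and 11 to 12 for SK-N-AS against SH-SY5Y, NGP, BE(2)-C and KELLY, 18 to 20, 26 to 29 and 17 to 18 for SH-SY5Y against NGP, BE(2)-C and KELLY, 16 to 17 and 13 to 14 for NGP against BE(2)-C and KELLY, and 19 to 20 for BE(2)-C against KELLY. At least 1 pair was called for 37 to 39 members, 5 to 6 marked SH-SY5Y, and 2 to 3 separated the classes. The replicate numbers did not pair the arrays (correlations of deviations from -0.23 to 0.23, over 0.1 in 5 of 30), and the fit with a replicate block again gave 37 members called in at least 1 pair and 3 separating the classes. Members near the cut-off lie close to the background of the arrays, which limits what their differences can show.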

Other observations

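Of 10 probe sets that name several members and were therefore used for no gene, 6 name the same 15 alpha protocadherins, whose transcripts share their constant exons. All 6 were brightest in BE(2)-C and dimmest in KELLY on the deposited scale. In the brightest, the means were 1454 ± 105 in BE(2)-C, 689 ± 12.1 in NGP, 408 ± 48.8 in SH-SY5Y, 230 ± 18.4 in SK-N-AS and 102 ± 7.71 in KELLY (SD, n = 3 each). On centred arrays BE(2)-C was again the brightest in 6 of 6, whereas the dimmest was KELLY in 4 and SK-N-AS in 2. Read from their own probe sets, 8 of the 15 alpha genes were highest in BE(2)-C and 4 of these lowest in KELLY, whereas 11 of the 15 were lowest in SH-SY5Y, and 9 of the 15 alpha genes stayed below the cut-off in every line.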
